A study of Mus musculus with 4 samples.

Results

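The BCL2 family genes were examined in RNA-seq of hematopoietic stem cells (HSC) and common lymphoid progenitors (CLP) from WT and GRK6-/- mice. GRK6 is a kinase that phosphorylates G protein-coupled receptors. The members were 10 genes chosen by symbol out of 12417 genes with a value in at least 1 library. Of these, 5 promote survival (Bcl2, Bcl2l1, Bcl2l2, Mcl1, Bcl2a1b) and 5 promote death (Bax, Bak1, Bcl2l11, Bad, Bid). All 10 had a value in 3 libraries, and 9 had one in GRK6-/- CLP, where Bcl2a1b had no row.

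HSC were sorted from bone marrow as Lin-c-kit+sca-1+ cells, and CLP by the same markers plus Il-7Ra. The mice were C57BL/6 or a GRK6 knockout strain backcrossed to it, WT and GRK6-/- animals being littermates aged 8 to 12 weeks unless the study stated otherwise, and the knockout was in all cells of the animal. The labels name no treatment. The HSC gate is known to hold multipotent progenitors beside stem cells. There was 1 library for each population and genotype, 4 in all. Each was a pool of separately amplified cDNA from 13 to 15 cells of 3 to 4 mice, so the spread between mice or cells could not be estimated, and no difference between a pair of libraries was tested.

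BCL2 family proteins decide whether the outer mitochondrial membrane is opened during apoptosis. Bax and Bak1 are the effectors that form the pores, after which cytochrome c leaves the mitochondrion and activates caspases. Pro-survival members hold the effectors in check through a groove on their surface, and the BH3-only members (Bcl2l11, also called BIM, Bad and Bid) insert a short helix, the BH3 domain, into that groove or activate the effectors. Blood progenitors are known to depend on this balance: Mcl1 is required for survival of stem cells, and Bcl2 is raised by IL-7 signaling in lymphoid progenitors.

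A stretch of the BH3 domain that occurs in members of both opposing classes is shown first. The core of the BH3 domain was searched as 6 residues, a leucine, any 3 residues, glycine or serine, and aspartate, in the longest complete protein that GENCODE vM1 (mm9) gives for each gene. It was found exactly once in 8 of 10 members, and no match was found in Bcl2l2 and Bcl2a1b. The codons of the core are in capitals with 9 bases on each side, all exonic coding sequence.
Bcl2: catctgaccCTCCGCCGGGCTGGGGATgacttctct
Bcl2l1: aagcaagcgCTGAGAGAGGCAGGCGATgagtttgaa
Mcl1: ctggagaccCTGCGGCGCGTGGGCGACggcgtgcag
Bax: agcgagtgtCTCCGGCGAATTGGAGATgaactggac
Bak1: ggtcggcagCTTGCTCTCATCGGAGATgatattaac
Bcl2l11: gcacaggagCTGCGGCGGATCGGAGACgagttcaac
Bad: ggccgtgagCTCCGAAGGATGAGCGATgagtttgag
Bid: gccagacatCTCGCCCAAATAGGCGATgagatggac

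These stretches lie in exon 1 of Bcl2 (chr1:108609152-108609187, minus strand), exon 2 of Bcl2l1 (chr2:152655433-152655468, minus) and exon 2 of Mcl1 (chr3:95463350-95463385, plus). In the effectors they lie in exon 3 of Bax (chr7:52721367-52721402, minus) and exon 4 of Bak1 (chr17:27159476-27159511, minus). In the BH3-only genes they lie in exon 3 of Bcl2l11 (chr2:127972877-127972912, plus), exon 3 of Bad (chr19:7025273-7025308, plus) and exon 4 of Bid (chr6:120847307-120847342, minus). A glycine codon precedes the aspartate codon in each of these except Bad, which has a serine codon. The residues NWGR, which mark the BH1 domain of the multidomain members, were present in 5 of 5 pro-survival proteins, in 1 of 2 effectors (Bax) and in 0 of 3 BH3-only proteins. The proteins ran from 172 residues (Bcl2a1b) to 331 residues (Mcl1). A match describes these letters only.

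Bcl2a1b needs a separate look, because mouse has near-identical copies of this gene on chromosome 9. The first 60 coding bases of 3 copies are given, with the positions at which they differ in capitals. They lie in exon 1 of Bcl2a1a (chr9:88851889-88851948, plus), Bcl2a1b (chr9:89094198-89094257, plus) and Bcl2a1d (chr9:88626498-88626557, minus).
Bcl2a1a: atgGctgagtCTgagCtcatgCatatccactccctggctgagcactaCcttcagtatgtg
Bcl2a1b: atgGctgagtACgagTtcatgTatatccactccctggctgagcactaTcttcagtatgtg
Bcl2a1d: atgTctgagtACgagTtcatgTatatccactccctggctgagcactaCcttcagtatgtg

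Over the 519 coding bases, Bcl2a1b differed from Bcl2a1a at 11 positions (97.9% identity) and from Bcl2a1d at 6 (98.8%). Of 718 possible 100-base stretches of its transcript, the length of 1 read, 30.9% also occur unchanged in another copy. Reads of Bcl2a1b can therefore be split among the copies, and its values below are uncertain.

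Expression is given as FPKM, fragments scaled to transcript length and to the mapped fragments of the library, as the authors deposited it. This is a level per length. Poly(dT) priming favors transcript ends, and the longest annotated transcripts run from 817 bp (Bcl2a1b) to 7191 bp (Bcl2), so levels of different genes, and the sums and ratios made from them, are approximate. The part of length in them was not tested. From the steps between low values, each library was estimated to hold about 2790000 to 4370000 fragments, which gives the approximate fragments behind a value. The paper reports several times more reads for each lineage, and the reason for this gap was not tested. Intervals from the estimated fragments are 95% intervals for counting error only, since PCR copies are not independent molecules. Il7r, the marker that separates the sorts, was 0 FPKM (WT) and 1.08 (GRK6-/-) in HSC and 120.1 (WT) and 75.1 (GRK6-/-) in CLP. Summed CLP markers, Il7r among them, were 248 FPKM (WT) and 222 (GRK6-/-) in HSC and 2890 (WT) and 2072 (GRK6-/-) in CLP. Summed stem cell markers did not separate the sorts. They were 282 FPKM (WT) and 440 (GRK6-/-) in HSC and 310 (WT) and 484 (GRK6-/-) in CLP. Grk6 itself was 42.7 FPKM (WT) and 89.4 (GRK6-/-) in HSC and 26.9 (WT) and 57.6 (GRK6-/-) in CLP. It was thus higher in both libraries labelled GRK6-/-, and a value per gene does not show which exons were read, so it does not check the genotype. GRK6-/- is used below as the label of a library. Summed erythroid markers were 338 FPKM (WT) and 1701 (GRK6-/-) in HSC and 154.2 (WT) and 18111 (GRK6-/-) in CLP. In GRK6-/- CLP, 7 of 10 had a row and Hba-a2 alone had 17220. In HSC, most of the sums lay in Car2, at 299 (WT) and 955 (GRK6-/-), and Car1, at 24.5 and 612. Hba-a2 was 5.98 (WT) and 53.2 (GRK6-/-) there. Myeloid markers summed to between 7754 and 17864 FPKM in all 4 libraries.

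Among the pro-survival members, Mcl1, a short-lived protein that holds Bak1 and BIM, was high and even. Mcl1 was 34.97 FPKM (WT) and 37.6 (GRK6-/-) in HSC and 53.2 (WT) and 61.8 (GRK6-/-) in CLP. Its highest value was 1.77 times its lowest, and both CLP libraries were above both HSC libraries. Mcl1 exceeded between 77.2% and 86.2% of the genes with a row in each library.

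Bcl2, the founding member of the family, varied more. It was 10.2 FPKM (WT) and 37.8 (GRK6-/-) in HSC and 37.8 (WT) and 17.5 (GRK6-/-) in CLP, from about 212, 1031, 1188 and 351 fragments. Of the WT libraries CLP was the higher, and of the libraries labelled GRK6-/- HSC was the higher. Mcl1 was 3.43 times Bcl2 in WT HSC and 3.53 times in GRK6-/- CLP, but 0.994 times in the HSC library labelled GRK6-/- and 1.41 times in WT CLP.

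Bcl2l1, which encodes BCL-XL, the survival factor of maturing red cells and platelets, was lower than either. It was 6.30 FPKM (WT) and 8.79 (GRK6-/-) in HSC and 3.50 (WT) and 9.78 (GRK6-/-) in CLP. The libraries labelled GRK6-/- were the higher in both populations. Bcl2l2, which encodes BCL-W, was between 1.35 and 2.33 FPKM, its lowest value being in GRK6-/- CLP from about 15 fragments. Bcl2a1b, which encodes the short-lived survival protein A1, was 1.122 FPKM (WT) and 4.33 (GRK6-/-) in HSC and 22.8 in WT CLP, and it had no row in CLP labelled GRK6-/-. The WT HSC value rests on about 3 fragments.

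The row for Bcl2a1b did not cover the same locus in all libraries. In both HSC libraries it ran from 89094111 to 89102676 on chromosome 9, and in WT CLP from 88851758 to 89102676, that is, from the start of Bcl2a1a to the end of Bcl2a1b. Bcl2a1d had its own row in the HSC library labelled GRK6-/- at 7.0005 FPKM and in WT CLP at 7.80, and Bcl2a1a had one in the former at 1.01. No copy had a row in GRK6-/- CLP.

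**Figure D1:**
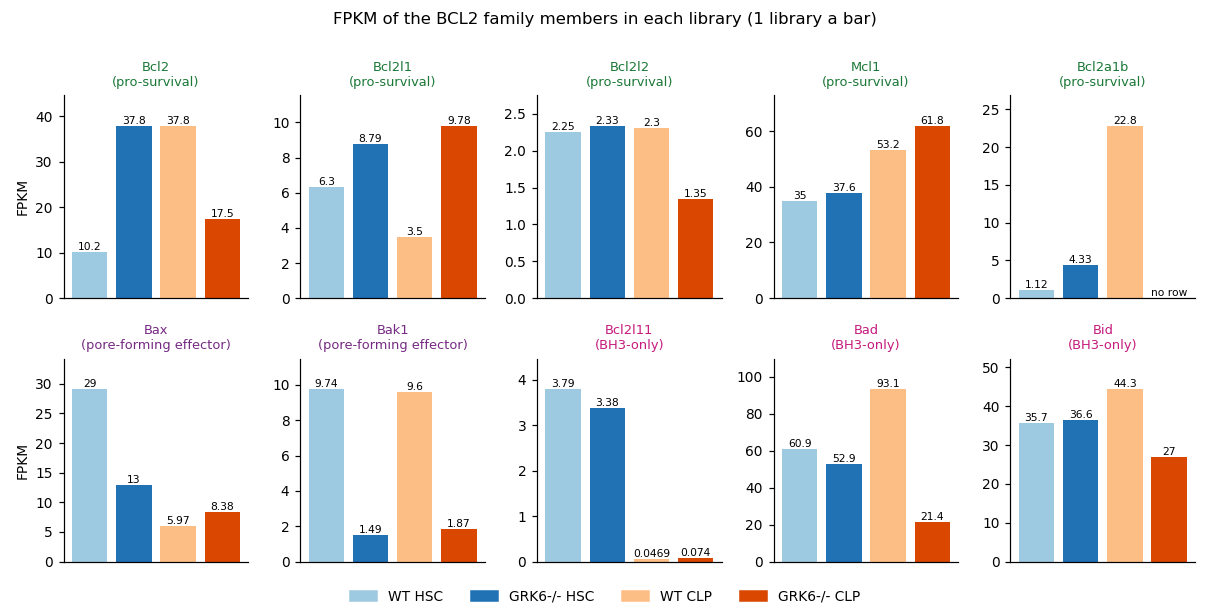
FPKM (vertical axes, each starting at 0 with its own scale) of the 10 members in the 4 libraries, with 1 bar per library and no error bar because there are no replicates. Bak1 is lower in both libraries labelled GRK6-/- (1.49 and 1.87 against 9.74 and 9.60), while Bcl2l11 stands above 3 FPKM in both HSC libraries only.

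Both effectors were expressed, and they behaved differently. Bak1, the effector that resides in the mitochondrial membrane, was 9.74 FPKM (WT) and 1.49 (GRK6-/-) in HSC and 9.60 (WT) and 1.87 (GRK6-/-) in CLP. The estimated fragments were 67, 13, 100 and 12. The WT libraries lay close together and both libraries labelled GRK6-/- lay below them. Bax, the effector that moves to the membrane from the cytosol, was 29.03 FPKM (WT) and 12.99 (GRK6-/-) in HSC and 5.97 (WT) and 8.38 (GRK6-/-) in CLP. WT HSC stood above the other libraries. Bax was 2.98 (WT) and 8.70 times Bak1 (GRK6-/-) in HSC and 0.622 (WT) and 4.49 times (GRK6-/-) in CLP.

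Among the BH3-only members, Bad and Bid were abundant and Bcl2l11 was not. Bad, which binds Bcl2 and BCL-XL unless it is phosphorylated downstream of growth factors, was 60.9 FPKM (WT) and 52.9 (GRK6-/-) in HSC and 93.1 (WT) and 21.4 (GRK6-/-) in CLP. It was the highest member in the first 3 of these libraries. Bid, which is cleaved by caspase-8 and links death receptors to mitochondria, was 35.7 FPKM (WT) and 36.6 (GRK6-/-) in HSC and 44.3 (WT) and 27.04 (GRK6-/-) in CLP. With a highest value 1.64 times its lowest, Bid varied least of the 9 members that had a row in every library.

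Bcl2l11, which is known to remove lymphoid cells that lack cytokine or receive a strong receptor signal, was 3.79 FPKM (WT) and 3.38 (GRK6-/-) in HSC and 0.0469 (WT) and 0.0740 (GRK6-/-) in CLP. The HSC values rest on about 55 and 64 fragments, and each CLP value on about 1. Bcl2l11 exceeded 28.1% and 29.7% of genes in the HSC libraries and 0.770% and 0.987% in the CLP libraries.

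To set the classes against each other, FPKM was summed over members. The pro-survival sum was 54.8 FPKM (WT) and 90.9 (GRK6-/-) in HSC and 119.6 (WT) and 90.4 (GRK6-/-) in CLP. The pro-death sum was 139.2 FPKM (WT) and 107.3 (GRK6-/-) in HSC and 153.1 (WT) and 58.8 (GRK6-/-) in CLP. Pro-survival members therefore held 28.3% (WT) and 45.9% (GRK6-/-) of the summed FPKM in HSC and 43.9% (WT) and 60.6% (GRK6-/-) in CLP. The share was higher in the library labelled GRK6-/- in both populations, and only in GRK6-/- CLP of the 4 libraries did the pro-survival sum exceed the pro-death sum (1.54-fold). With Bcl2a1b left out, the share in WT CLP was 38.8%, and with the 3 copies of Bcl2a1 summed, it was 47.97% in GRK6-/- HSC.

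The members that made up these differences are given for each population. In HSC, the pro-survival sum was 36.0 FPKM higher in the library labelled GRK6-/-, of which Bcl2 made up 27.6. The pro-death sum differed by -31.9 FPKM, of which -24.3 lay in the effectors. In CLP, the pro-survival sum differed by -29.2 FPKM, with -22.8 from Bcl2a1b, listed at 0 in GRK6-/- CLP, and -20.35 from Bcl2, against 8.54 from Mcl1 and 6.29 from Bcl2l1. The pro-death sum differed by -94.3 FPKM, of which Bad made up -71.7. The effectors held 19.98% of the summed FPKM in WT HSC and 5.71% to 7.31% in the other libraries. Mcl1 held 18.02% to 19.5% of it in 3 libraries and 41.4% in GRK6-/- CLP.

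**Figure D2:**
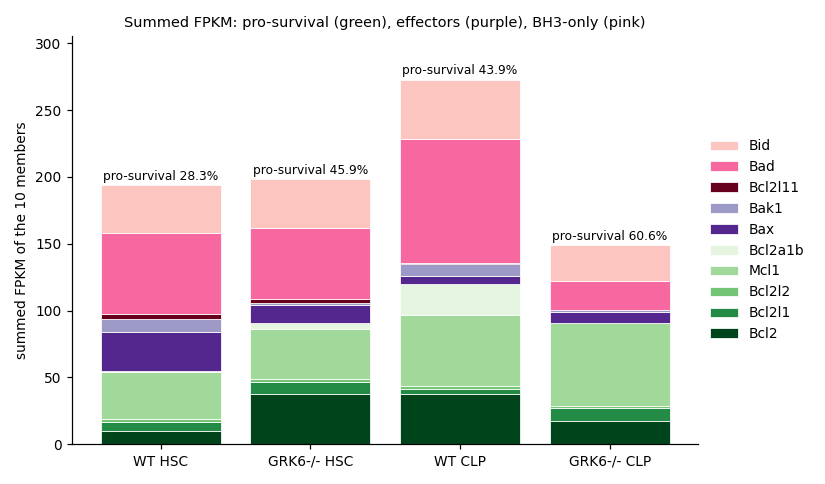
Summed FPKM of the 10 members (vertical axis) in each of the 4 libraries, stacked by gene, with pro-survival members in green, effectors in purple and BH3-only members in pink. The pro-survival share printed above each bar is 28.3%, 45.9%, 43.9% and 60.6% from left to right, and the smaller pink block of Bad in GRK6-/- CLP (93.1 to 21.4 FPKM) separates the CLP libraries.

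Ratios of single pairs moved further than the sums. Bcl2 was 0.351 (WT) and 2.91 times Bax (GRK6-/-) in HSC and 6.33 (WT) and 2.09 times (GRK6-/-) in CLP. WT HSC was the library in which Bax exceeded Bcl2. Mcl1 was 3.59 (WT) and 25.2 times (GRK6-/-) the level of Bak1, its known partner, in HSC and 5.54 (WT) and 33.1 times (GRK6-/-) in CLP. Levels of mRNA do not show which proteins were bound to each other.

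GRK6-/- and WT were then compared in HSC by the log2 ratio of FPKM + 1, GRK6-/- over WT. Bcl2 and Bcl2a1b were higher, Bax and Bak1 were lower, and the other 6 members lay within a 2-fold change. In all, 4 of 10 members passed an absolute log2 ratio of at least 1, against 37.4% of the 11624 genes with a value (19.3% higher and 18% lower), so the members' count was near the background. In this and the other bulk comparisons, fewer cells that express a gene and less RNA per cell cannot be told apart. Erythroid markers summed to 338 FPKM in WT and 1701 in GRK6-/-, and their part in these ratios was not tested.

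The Bcl2 ratio was 1.79 on the log2 scale in HSC, a 3.71-fold difference in FPKM (interval 3.19 to 4.32). Bcl2a1b was 1.33 on the log2 scale, and its 3.86-fold ratio had an interval of 0.907 to 18.1, which includes no difference. Bak1 had a log2 ratio of -2.11, a level 6.52-fold higher in WT HSC (3.70 to 13.4). Bax had a log2 ratio of -1.10, a level 2.24-fold higher in WT HSC (1.56 to 3.19). Mcl1 (log2 ratio 0.10), Bid (0.03), Bcl2l2 (0.03), Bcl2l11 (-0.13), Bad (-0.20) and Bcl2l1 (0.42) made up the remainder. The median log2 ratio was 0.42 over the pro-survival members, -0.20 over the pro-death members and 0.05 over all genes.

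In CLP, Bcl2l1 was higher in the library labelled GRK6-/-, and Bcl2, Bcl2a1b, Bak1 and Bad were lower. This was 5 of 10 members, against 50% of the 11191 genes with a value (26.6% higher and 23.4% lower), so the count equaled the background. Bad had a log2 ratio of -2.07, a level 4.35-fold higher in WT CLP (interval 3.45 to 5.49). Bak1 had a log2 ratio of -1.89, a level 5.14-fold higher in WT CLP (2.92 to 10.6). Bcl2 had a log2 ratio of -1.07, a level 2.16-fold higher in WT CLP (1.92 to 2.44). With FPKM rescaled to the same sum in each library, this ratio was -0.98, within 2-fold.

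Bcl2l1 was the member on the higher side in CLP, with a log2 ratio of 1.26, or 2.80-fold (1.84 to 4.30). Bcl2a1b had a log2 ratio of -4.57, but it is listed at 0 in GRK6-/- CLP, so that this value depends on the 1 FPKM added to each level and no fold is given. Mcl1 was again close to even, at 0.21 on the log2 scale. Bax (0.43), Bcl2l11 (0.04), Bcl2l2 (-0.49) and Bid (-0.69) also stayed within 2-fold. The median was -0.49 over the pro-survival members, -0.69 over the pro-death members and 0.05 over all genes. The order of the classes turned with a pseudocount of 0.1 FPKM, where the pro-survival median minus the pro-death median was -0.019. Erythroid markers summed to 154.2 FPKM in WT and 18111 in GRK6-/-, and B-lineage markers to 115.3 and 968.1, with 6 of 7 having a row in each and Pax5 at 0 in all 4 libraries. Their part in these ratios was not tested.

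**Figure D3:**
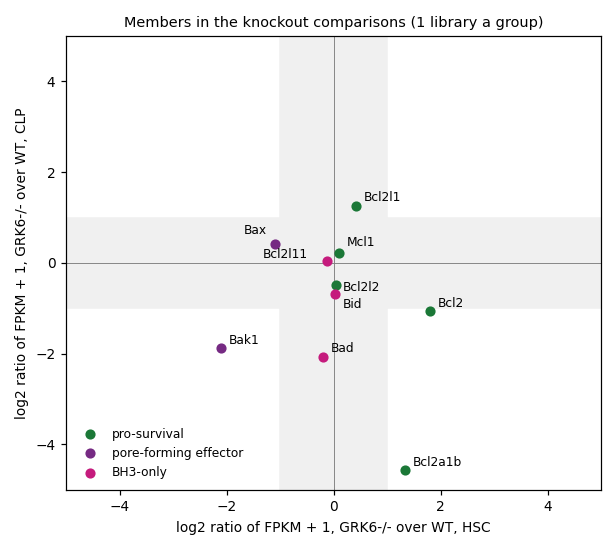
Log2 ratio of FPKM + 1, GRK6-/- over WT, in HSC (horizontal axis) and CLP (vertical axis) for the 10 members, 1 point per gene colored by class, with the grey bands marking less than a 2-fold change. Bak1 is the 1 member beyond the bands on the lower side in both populations (-2.11 and -1.89), and Bcl2 and Bcl2a1b are higher in HSC and lower in CLP.

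Across both populations, Bak1 was the 1 member of 10 lower by at least 2-fold in each, and 0 members were higher in each. Among the 10398 genes with a value in both comparisons, 4.43% were lower in each, 5.66% were higher in each and 10.8% went in opposite directions past 2-fold. Bcl2 and Bcl2a1b were the 2 members in the last group.

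A single genotype effect over the populations was fitted with limma across 11230 genes, with population as a covariate and 1 residual degree of freedom. That residual is the difference in genotype effect between the populations, not a spread between replicates. No member was called after Benjamini-Hochberg adjustment, nor was any gene (0%), and 0 members were among the 500 genes (4.45%) with an unadjusted limma p under 0.05. Bak1 came nearest of the members, with a common log2 difference of -1.996 (SE 0.93, adjusted p = 0.999 by limma).

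HSC were next compared with CLP within each genotype, as the log2 ratio of HSC over CLP. In WT, Bax and Bcl2l11 were higher in HSC, and Bcl2 and Bcl2a1b were higher in CLP. This was 4 of 10 members, against 46.5% of the 11202 genes with a value (24.7% higher and 21.8% lower in HSC). The Bcl2l11 ratio was 2.19 on the log2 scale, and 80.8-fold in FPKM with an interval of 14.3 to 3344, since WT CLP had about 1 fragment. Bax had a log2 ratio of 2.11, or 4.86-fold (3.17 to 7.89). Bcl2 had a log2 ratio of -1.79, a level 3.71-fold higher in CLP (3.20 to 4.31). Bcl2a1b had a log2 ratio of -3.49, a level 20.3-fold higher in CLP (5.90 to 88.4), over the wider locus described above.

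Between the libraries labelled GRK6-/-, 4 of 10 members passed 2-fold, all higher in HSC, against 45.6% of the 11708 genes with a value (23.4% higher and 22.3% lower in HSC). These were Bcl2, Bcl2a1b, Bcl2l11 and Bad. Bcl2l11 had a log2 ratio of 2.03, and 45.7-fold in FPKM with an interval of 8.15 to 1889. Bad had a log2 ratio of 1.27, or 2.47-fold (1.93 to 3.16). Bcl2 had a log2 ratio of 1.07, or 2.16-fold (1.91 to 2.45), which became 0.87 after the rescaling to equal sums. Bcl2a1b had a log2 ratio of 2.42 against a library in which it is listed at 0. Over genes with a value of at least 1 in both libraries on the scale used, that rescaling took the median log2 ratio from -0.016 to -0.22 in this comparison and from 0.00042 to -0.14 in GRK6-/- against WT HSC.

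Bcl2l11 was the 1 member with the same direction past 2-fold in both genotypes, being higher in HSC. The share of all genes that did so was not computed, so this count has no background to be set against. In the limma fit, the population term gave Bcl2l11 a log2 difference of 2.11 (SE 0.93, adjusted p = 0.916 by limma). It called 1 of 11230 genes (0.0089%) and 0 members after adjustment, and 608 genes (5.41%) and 0 members had an unadjusted limma p under 0.05. Mcl1 was lower in HSC in each genotype, at -0.59 and -0.70 on the log2 scale, within 2-fold. Bak1 differed little between populations, at 0.02 in WT and -0.20 in GRK6-/-.

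**Figure D4:**
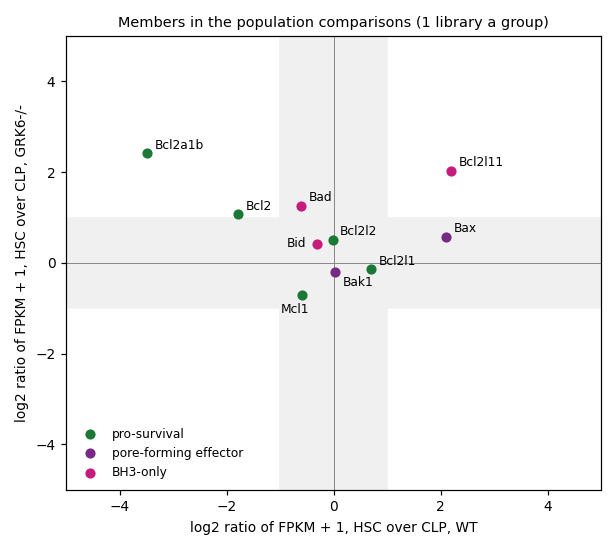
Log2 ratio of FPKM + 1, HSC over CLP, in WT (horizontal axis) and GRK6-/- (vertical axis) for the 10 members, 1 point per gene colored by class, with the grey bands marking less than a 2-fold change. Bcl2l11 lies at the upper right (2.19 and 2.03), and Bcl2 and Bcl2a1b lie at the upper left.

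The rest of the family was counted from a list of 16 further genes. Of these, 4 had a row in all libraries and 4 had none in any (Bcl2a1c, Bcl2l10, Hrk and Bcl2l15). In HSC, 5 of the 11 with a value were at least 2-fold higher in GRK6-/- and 0 were lower, against 19.3% and 18% of all genes. In CLP, 4 of 10 were higher and 2 lower, against 26.6% and 23.4%. Of the 5 higher in HSC, Bcl2a1a, Bcl2a1d and Pmaip1 are listed at 0 in WT, so that their ratios depend on the 1 FPKM added. The 4 higher in CLP were BH3-only genes listed at 0 in WT, so the same holds for them. Bcl2l12, a BCL2 homolog, was 20.5 FPKM (WT) and 82.7 (GRK6-/-) in HSC and 34.2 (WT) and 21.9 (GRK6-/-) in CLP. Bnip3, a hypoxia-induced gene of mitophagy with a BH3-like stretch, was 4.65, 12.3, 12.3 and 0.216 FPKM in the same order. Both were thus higher in GRK6-/- HSC than in WT HSC, and Bnip3 was lowest in GRK6-/- CLP. Bnip3l, its close relative, stayed between 25.7 and 29.3 FPKM. Pmaip1, which encodes the MCL1-binding BH3-only protein NOXA, had rows only in the libraries labelled GRK6-/-, at 3.09 FPKM in HSC and 8.53 in CLP. Bik, also a BH3-only gene, had a row in GRK6-/- CLP alone, at 8.91 FPKM. Bmf was at 0 in WT CLP and 1.07 FPKM in GRK6-/- CLP, and Bcl2l14 at 0 and 1.33.

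Genes that act beside or after the membrane step came from a list of 22, of which 20 had a row in all libraries. In HSC, 5 of 22 were at least 2-fold higher in GRK6-/- and 4 were lower, against 19.3% and 18% of all genes. In CLP, 8 of 21 were higher and 1 was lower, against 26.6% and 23.4%. Among the inhibitors of apoptosis, which bind caspases, Birc3 was 24.8 FPKM (WT) and 4.22 (GRK6-/-) in HSC and 2.58 (WT) and 51.4 (GRK6-/-) in CLP. Xiap was 17.3, 8.52, 10.97 and 71.6 FPKM in the same order. Birc2 was 11.02, 5.75, 3.19 and 35.4 FPKM. These 3 genes were highest in GRK6-/- CLP. Birc5, which encodes survivin and also acts in cell division, was more abundant and highest in WT CLP, at 173.7, 206.2, 314.5 and 251.6 FPKM.

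Diablo and Htra2 encode mitochondrial proteins that relieve this inhibition once released. Diablo was 20.4 FPKM (WT) and 49.4 (GRK6-/-) in HSC and 3.43 (WT) and 132.3 (GRK6-/-) in CLP. Htra2 was 342.9, 78.9, 49.3 and 159.98 FPKM in the same order. Diablo was higher in the library labelled GRK6-/- in both populations (log2 ratios 1.24 and 4.91), and Htra2 was lower in HSC and higher in CLP (-2.11 and 1.68).

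Apaf1, the scaffold on which cytochrome c assembles the apoptosome, was 18.2 FPKM (WT) and 5.33 (GRK6-/-) in HSC and 1.26 (WT) and 4.57 (GRK6-/-) in CLP. Of the caspases that cleave cell proteins, Casp6 was 8.76, 71.1, 47.1 and 12.3 FPKM in the same order. Casp6 was higher in GRK6-/- HSC than in WT HSC, and Apaf1 was lower. Cycs, which encodes cytochrome c itself, stayed between 26.7 and 37.6 FPKM. Of the channel genes and their partners in the outer membrane and ER, Vdac3 had a log2 ratio of 1.37 in HSC and -0.25 in CLP, and Bcap31 had -0.12 and 2.07.

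The genes whose profile over the 4 libraries lay nearest to Bcl2 and Mcl1 were looked up among 8245 genes with a value in every library, by Euclidean distance of log2(FPKM + 1). For Bcl2 they were Tgif1 (distance 0.318), Azin1 (0.397) and Cul3 (0.436), and these 3 were the only ones within 0.5. For Mcl1 they were Cdipt (0.323), Wdyhv1 (0.332) and Sh3bgrl (0.365), with 19 genes within 0.5. Profiles of 4 libraries that share a pool and a depth each describe likeness in level only.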

How the data were processed

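The authors sorted HSC and CLP, amplified the cDNA of each cell by 20 and then 10 cycles of PCR, pooled it and sequenced 100-bp paired reads. Per the labels and the methods, reads were aligned to mm9 with TopHat 1.4.0 within the Tuxedo suite. The authors deposited 1 FPKM per gene and library, without counts or error, and further settings are not given in the sources used here. Poly(dT) priming favors transcript ends, and amplification of few cells adds variation that FPKM cannot show.

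Rows of a symbol were summed, and a gene without a row was given 0. The 478 genes and joint names found in rows naming several genes were left out of 12895. No member was among them. Log2 ratios used a pseudocount of 1 FPKM, which understates changes of low genes. Ratios of at least 1 in absolute size were counted and set against all genes, with no test, as each group had 1 library. The exception was the count shared by both genotypes in HSC against CLP, which was not set against all genes. Depth was estimated from the steps of FPKM below 0.3, over genes with only 1 GENCODE vM1 transcript, of at least 1500 bp. The step was chosen to place most of these values near 1 to 3 fragments. Between 73.8% and 81.6% of them lay within 10% of 1 to 3 fragments. Fragments of a member used the length of its longest GENCODE vM1 transcript and are approximate. Their ratios have exact 95% intervals. Limma (with eBayes and Benjamini-Hochberg adjustment) was fitted to genes with at least 1 FPKM in at least 1 library, on log2(FPKM + 1) with population and genotype terms.

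The members and lists were chosen with earlier results of these data known. The genes named were the members, genes of the wider lists with at least 10 FPKM in a library and a 2-fold change in a knockout comparison (up to 15), and the 3 genes nearest Bcl2 and Mcl1. Some genes that met this rule are not reported here. Pmaip1, Bik, Bmf, Bcl2l14, Bcl2a1a, Bcl2a1d, Bnip3l, Birc5, Cycs and the genes without a row were named after their values were seen. Sequences were read from GENCODE vM1 transcripts and matched to the mm9 genome at the positions given. The scripts were tested on simulated data: the fold count found 200 of 200 changed genes, and limma called 200 of 200 and 8 others among 11230 genes. The fold check multiplied copied values without noise, so its outcome was fixed in advance. The simulated limma data had far less noise than these libraries and the same change in both populations. They therefore do not show the power of limma here. Computations used limma 3.58.1 in R 4.3.3, and pandas 2.3.3, scipy 1.17.1, numpy 2.4.6 and matplotlib 3.10.9 in Python 3.11.15. Alternatives were the pseudocount, the filter, the scaling, the fold, joint and repeated rows, the Bcl2a1 copies and the prior variance in limma.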

Additional observations from a re-analysis of the deposited data

Results flagged for a closer look

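Bcl2 and Bcl2a1b were singled out because their GRK6-/- over WT ratios went in opposite directions in HSC and CLP. The log2 ratio of Bcl2 was 1.79 in HSC and -1.07 in CLP. That of Bcl2a1b was 1.33 in HSC and -4.57 in CLP, the latter against a library in which it is listed at 0. The difference between populations was not tested for either gene, since each group had 1 library. Of all genes with a value in both comparisons, 10.8% went in opposite directions past 2-fold.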

How the results depend on the processing

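Of 64 recalculations of the main counts, shares and class medians, 57 kept their value within the limits set, 5 moved and 2 reversed. With an absolute log2 ratio of at least 2, 1 of 10 members passed in GRK6-/- against WT HSC, against 12.4% of all genes. In GRK6-/- against WT CLP, 2 members passed (24.8% of all genes). In HSC against CLP, 2 members passed in GRK6-/- (19.1% of all genes) and 3 in WT (20.5%), the last within the limits set. These follow from the stricter fold. The pro-survival share was 47.97% in GRK6-/- HSC with the 3 copies of Bcl2a1 summed (chosen after seeing the data) and 38.8% in WT CLP without Bcl2a1b. With a pseudocount of 0.1 FPKM, the pro-survival minus pro-death median log2 ratio changed from 0.20 to -0.019 in GRK6-/- against WT CLP and from -0.07 to 0.12 in HSC against CLP of GRK6-/-. Both lie near 0. The pro-survival median was Bcl2l2 in each, whose log2 ratio went from -0.49 to -0.73 and from 0.50 to 0.75. The pro-death median was Bid in the former (-0.69 to -0.71) and Bax in the latter (0.58 to 0.63). Rescaling to equal sums took Bcl2 within 2-fold in the same comparisons, with counts of 4 and 3 members, against 53.0% and 49.4% of all genes. Of 240 recalculations of member ratios, 230 stayed within the limits set, 10 moved and 0 reversed. For a member with a value in both libraries, the limit was the wider side of its counting-error interval, which is wide where fragments are few. With a pseudocount of 0.1 FPKM, the Bcl2l11 log2 ratio of HSC over CLP went from 2.19 to 4.73 in WT. In GRK6-/- it went from 2.03 to 4.32. Bcl2a1b in GRK6-/- against WT HSC went from 1.33 to 2.65 with the 3 copies summed. All of these counted as within the limits.

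In limma, a prior variance with a trend called 57 genes for genotype and 80 for population, against 0 and 1, and 0 members. The members' lowest adjusted p in limma ranged from 0.917 to 0.999 for genotype and from 0.8045 to 0.9255 for population over the settings run. The limma fit estimates 1 genotype effect common to both populations, so opposite changes in HSC and CLP, as for Bcl2, enter its error. In the main fit no member had an unadjusted limma p under 0.05, but for both terms this did not hold in every setting run. No replicate could be left out, since each group had 1 library. About 1 fragment of Bcl2l11 in each CLP library and 3 of Bcl2a1b in WT HSC limit those ratios.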
